A study of Mus musculus with 8 samples.

Results

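The regions described here are 1 kb bins of the mouse genome that lay under acetylated-histone-H4 peaks in every macrophage library without PAM3 and under none, by the same measure, in every library with PAM3, whether or not the cells had also received 25HC. A bin was called in a library when the deposited peaks of that library covered at least 500 bp of it. The members were the bins of chromosomes 1 to 19 called in all 4 libraries without PAM3 and in 0 of the 4 libraries with PAM3. There were 2394 such lost bins, of 115134 bins called in at least 1 library. They made up 6.01% of the 39826 bins called in all 4 libraries without PAM3. The reverse pattern, called in all 4 libraries with PAM3 and in 0 of 4 without, held for 2029 of 33129 bins (6.12%), so the loss was close in size to the gain. The members were chosen by the called lengths of all 8 libraries, so the difference between libraries with and without PAM3 at these bins is described below with no test.

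The series holds ChIP-seq of acetylated histone H4, taken with a polyclonal antibody, from bone-marrow-derived macrophages (BMDM) of C57BL/6 mice. The 4 groups were PAM3, 25HC then PAM3, 25HC, and untreated, and each was measured once in mouse A and once in mouse B. PAM3 is PAM3CSK4, and 25HC is 25-hydroxycholesterol. The stimulation time in the labels has no unit and reads 18 in all libraries with PAM3 and 0 in all libraries without it, so PAM3 and time cannot be told apart. All groups shared the strain and the cell type, and no transgene or deletion is named. The labels state no dose, no length of the 25HC treatment and no age of the mice.

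Acetylation of the tails of histone H4 neutralises the charge of lysines, loosens chromatin and is found at active promoters and enhancers. PAM3CSK4 is a synthetic lipopeptide sensed by Toll-like receptor 2 paired with Toll-like receptor 1, and it sets off NF-kB signalling and an inflammatory gene programme in macrophages. 25HC is an oxysterol made by the enzyme cholesterol 25-hydroxylase, which macrophages induce on infection, and it restrains cholesterol synthesis and activates LXR receptors.

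Most lost bins held no gene start. Of the lost bins, 97 held the start of at least 1 of 113 RefSeq promoter windows (104 genes, 64 of them named protein-coding genes), out of 31365 windows on GRCm38.p6. The 39826 bins called in all 4 libraries without PAM3 held the starts of 10252 windows, so starts were scarcer in lost bins than in the bins they came from. In 8 of those 64 genes the bin of the start carried 0 bp of peak in all 4 libraries with PAM3. They were chosen for printing after their values were seen, because nothing of the peak was left at the start. Espn encodes an actin-bundling protein, Cryba4 a lens crystallin, Siglech a sialic-acid-binding lectin known from plasmacytoid dendritic cells and microglia, Nfix a nuclear factor I transcription factor, and Junb an AP-1 subunit. Cbfa2t3 encodes a corepressor of the ETO family, Plppr3 a phospholipid-phosphatase-related membrane protein and Slain1 a microtubule-associated protein. Each window runs 5′ to 3′ along the gene from 250 bases before the start through the first 50 bases from it. Capitals mark matches, on either strand, to 7 searched motifs, which are the ETS core GGAAGT, AP-1 TGANTCA, C/EBP TTGCNNAA, NF-kB GGANTTTCC, IRF GAAANNGAA, RUNX TGTGGT and SP/KLF GGGCGG.
Siglech (chr7:55767934-55768233, plus strand): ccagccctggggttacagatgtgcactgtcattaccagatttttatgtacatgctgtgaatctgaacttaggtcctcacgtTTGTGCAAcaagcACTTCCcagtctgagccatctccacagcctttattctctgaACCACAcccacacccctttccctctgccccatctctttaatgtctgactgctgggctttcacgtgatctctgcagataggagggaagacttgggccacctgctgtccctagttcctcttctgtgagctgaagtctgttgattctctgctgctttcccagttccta
Slain1 (chr14:103649978-103650277, plus strand): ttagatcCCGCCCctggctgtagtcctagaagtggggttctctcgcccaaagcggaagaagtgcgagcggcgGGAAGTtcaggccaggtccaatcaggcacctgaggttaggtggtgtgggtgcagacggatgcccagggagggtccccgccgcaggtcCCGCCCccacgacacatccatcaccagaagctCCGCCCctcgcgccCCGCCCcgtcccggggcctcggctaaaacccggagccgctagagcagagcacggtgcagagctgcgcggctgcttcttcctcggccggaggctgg
Espn (chr4:152152340-152152639, minus strand): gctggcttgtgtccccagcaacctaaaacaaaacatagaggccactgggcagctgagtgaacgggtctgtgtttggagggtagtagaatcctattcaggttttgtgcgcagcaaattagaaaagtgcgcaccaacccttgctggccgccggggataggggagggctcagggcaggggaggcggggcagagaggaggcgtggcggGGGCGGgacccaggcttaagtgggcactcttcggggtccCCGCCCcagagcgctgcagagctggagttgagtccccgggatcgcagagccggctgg
Cryba4 (chr5:112252469-112252768, minus strand): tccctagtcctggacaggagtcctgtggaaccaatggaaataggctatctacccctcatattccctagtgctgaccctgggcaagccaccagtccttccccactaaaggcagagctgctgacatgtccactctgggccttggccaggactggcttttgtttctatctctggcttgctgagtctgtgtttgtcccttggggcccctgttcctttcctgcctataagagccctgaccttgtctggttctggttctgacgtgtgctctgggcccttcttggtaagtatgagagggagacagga
Nfix (chr8:84775779-84776078, minus strand): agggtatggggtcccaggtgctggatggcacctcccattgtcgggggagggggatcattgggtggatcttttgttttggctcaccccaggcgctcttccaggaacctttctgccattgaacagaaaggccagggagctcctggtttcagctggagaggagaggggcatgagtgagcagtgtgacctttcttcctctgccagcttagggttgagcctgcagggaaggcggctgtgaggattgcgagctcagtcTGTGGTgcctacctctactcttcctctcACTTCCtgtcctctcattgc
Junb (chr8:84978699-84978998, minus strand): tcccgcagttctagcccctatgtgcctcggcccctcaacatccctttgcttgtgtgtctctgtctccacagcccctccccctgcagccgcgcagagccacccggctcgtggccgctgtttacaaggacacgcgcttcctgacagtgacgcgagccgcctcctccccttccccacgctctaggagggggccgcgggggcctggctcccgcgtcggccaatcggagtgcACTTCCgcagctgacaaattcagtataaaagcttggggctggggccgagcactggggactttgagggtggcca
Cbfa2t3 (chr8:122699060-122699359, minus strand): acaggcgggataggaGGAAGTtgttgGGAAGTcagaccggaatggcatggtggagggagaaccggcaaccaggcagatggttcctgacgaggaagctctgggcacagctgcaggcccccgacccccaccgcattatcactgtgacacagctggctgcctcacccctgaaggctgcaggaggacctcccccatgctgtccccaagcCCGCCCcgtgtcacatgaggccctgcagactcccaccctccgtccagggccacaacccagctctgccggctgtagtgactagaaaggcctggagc
Plppr3 (chr10:79874585-79874884, minus strand): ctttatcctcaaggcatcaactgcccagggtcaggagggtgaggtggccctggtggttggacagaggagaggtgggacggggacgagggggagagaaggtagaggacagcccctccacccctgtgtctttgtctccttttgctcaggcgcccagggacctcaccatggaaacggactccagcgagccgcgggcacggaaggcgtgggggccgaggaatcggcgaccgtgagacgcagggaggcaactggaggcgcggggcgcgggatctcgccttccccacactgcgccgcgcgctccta

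In these windows Slain1 held 4 SP/KLF matches, Espn held 2, Siglech held 1 match each to the ETS core, C/EBP and RUNX, and Cryba4 and Plppr3 held none. Promoter windows that started in a lost bin had a median G+C content of 57.3%, against 62% for windows starting in a bin called in all 8 libraries and 53% for all windows. Their median number of CpG dinucleotides was 9, against 23 in bins called in all 8 libraries and 7 in all windows. Windows starting in gained bins had medians of 55.3% G+C and 9 CpG. The promoters in lost bins were thus closer in CpG number to the average promoter, and to promoters in gained bins, than to the promoters that stayed called.

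The SP/KLF letters occurred in 42.5% of the 113 windows in lost bins, in 67% of windows in bins called in all 8 libraries and in 36% of all windows. The RUNX letters occurred in 19.5% of windows in lost bins, 11.7% in bins called in all 8 and 16.7% of all windows. For the ETS core the shares were 24.8%, 31.4% and 23.9%. The C/EBP letters were in 11.5%, 8.16% and 10.9% in the same order. The AP-1 letters were in 4.42%, 4.72% and 7.85%, and the IRF letters in 4.42%, 7.03% and 8.52%. The NF-kB letters were in 0 of 113 windows in lost bins, against 1.35% in bins called in all 8 and 1.27% of all windows. A match, or its absence in this window, describes letters only.

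The 8 starts differed in how much of their surroundings went with them. At Siglech, the start bin chr7:55768001-55769000 had 0 bp of peak in all 4 libraries with PAM3, against 1000 bp in both 25HC and both untreated libraries. The bin before it, also a member, had 0 bp in all 4 libraries with PAM3, against 991 and 945 bp with 25HC and 881 and 1000 bp untreated. No bin within 5 kb of the Siglech start had a peak in a library with PAM3. At Slain1, the start bin chr14:103650001-103651000 had 0 bp in all 4 libraries with PAM3, 771 and 870 bp with 25HC, and 790 and 828 bp untreated. Of the libraries with PAM3, only PAM3 mouse B had any peak within 5 kb of it, 254 and 272 bp in the bins 3 and 4 kb downstream.

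Junb gave the other picture, a gap inside a domain that was otherwise kept. Its start bin chr8:84978001-84979000 had 0 bp in all 4 libraries with PAM3, against 601 and 1000 bp with 25HC and 588 and 1000 bp untreated. The next bin downstream kept 985 and 979 bp with PAM3 and 927 and 974 bp with 25HC then PAM3, against 645 and 1000 bp with 25HC and 1000 bp in both untreated libraries. The bins 2 and 3 kb upstream were filled, at 1000 bp, in all 8 libraries. At Espn, the peak kept its upstream edge, with 712 and 765 bp in the bin 2 kb upstream with PAM3, 697 and 737 bp with 25HC then PAM3, 642 and 699 bp with 25HC, and 643 and 616 bp untreated. The Espn start bin itself held 0 bp in all 4 libraries with PAM3, 1000 and 900 bp with 25HC, and 1000 bp in both untreated libraries.

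Cryba4 differed between the libraries with PAM3 that had and had not received 25HC. In the bin 1 kb downstream of its start bin, peaks covered 722 and 734 bp with 25HC then PAM3 and 0 bp in both PAM3 libraries, against 857 and 988 bp with 25HC and 1000 bp in both untreated libraries. The start bin itself was at 0 bp in all 4 libraries with PAM3, so Cryba4 lies at a site that was lost in part in one arm and in whole in the other. At Cbfa2t3, Nfix and Plppr3 the start bins were at 0 bp with PAM3. In the libraries without PAM3 they ranged from 583 to 1000 bp at Cbfa2t3, from 687 to 1000 bp at Nfix and from 570 to 787 bp at Plppr3.

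**Figure D1:**
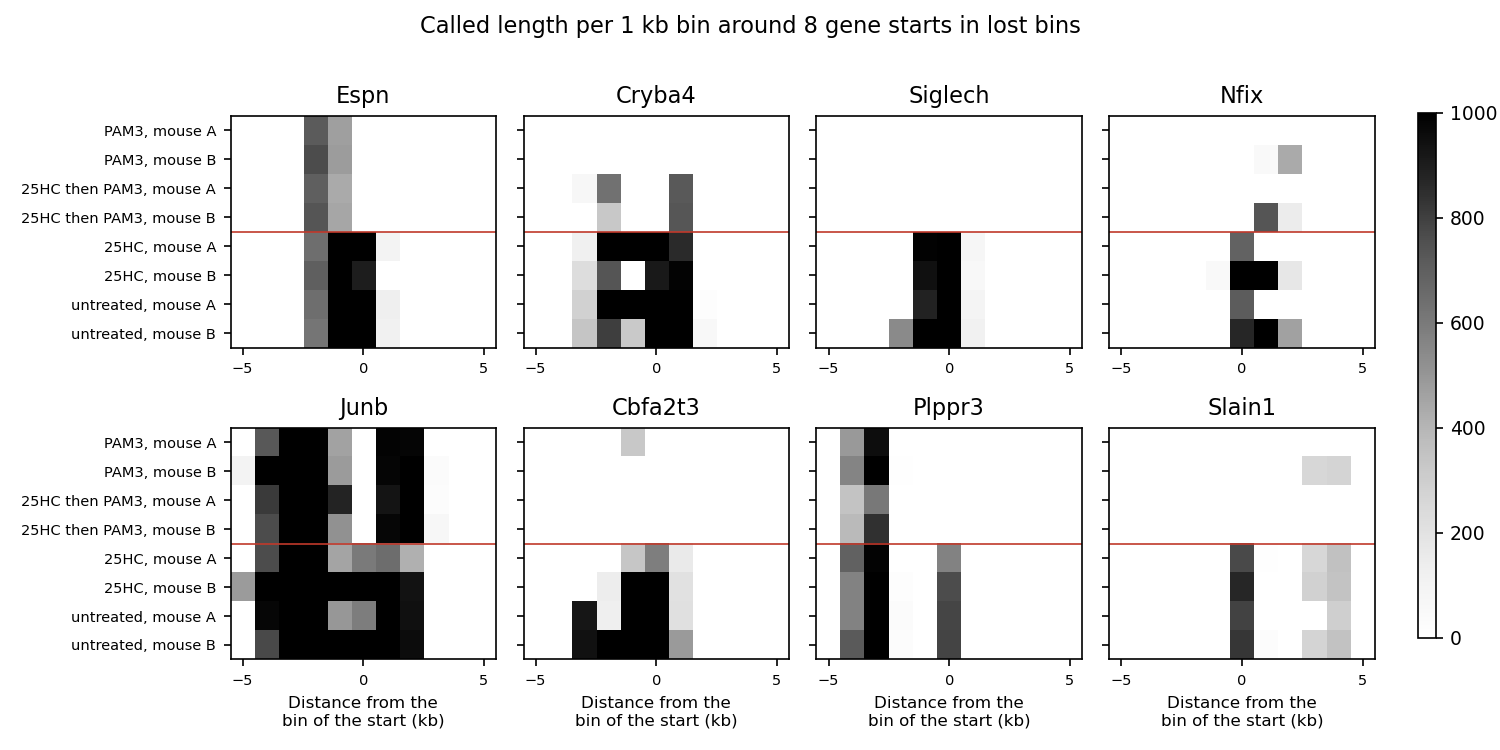
Called length (grey scale, 0 to 1000 bp) in each 1 kb bin within 5 kb of the bin that holds the start of 8 genes, with downstream to the right. Each row is 1 library, and the red line separates the 4 libraries with PAM3, above it, from the 4 without. The bin at 0 is white in every library with PAM3; Siglech is empty across the whole panel there, while Junb keeps its peaks on both sides.

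The lists held between 48446 and 54552 peaks per library and covered between 55.31 Mb, in PAM3 mouse A, and 70.59 Mb, in PAM3 mouse B, of chromosomes 1 to 19. The read depth is unknown. BMDM identity was checked on marker genes by the called length in the window of each gene, meaning the gene with 5 kb added at both ends. Of 26 macrophage identity genes, 24 had a peak in all 8 libraries and 1 (Timd4) was at 0 in all 8. Of 22 lymphocyte markers 7 had a peak in all 8 libraries and 6, among them Cd3e, Pax5 and Bcl11b, were at 0 in all 8. Of 16 dendritic cell markers 10 had a peak in all 8 libraries, and of 19 neutrophil markers 12 had one, with Ly6g and Cxcr2 at 0 in all 8.

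Loss with PAM3 was the far end of a graded pattern. Of the 39826 bins called in all 4 libraries without PAM3, 24917 (62.6%) were called in all 4 libraries with PAM3, 6472 (16.3%) in 3, 3659 (9.19%) in 2, 2384 (5.99%) in 1 and 2394 (6.01%) in 0. Single libraries with PAM3 lacked 20.4% (PAM3 mouse A), 15.4% (PAM3 mouse B), 21.4% (25HC then PAM3, mouse A) and 19.4% (25HC then PAM3, mouse B) of those bins. The library with most covered length, PAM3 mouse B, lacked the fewest. With the covered length made equal in all 8 libraries by keeping the strongest peaks, 1754 bins were lost (6.31%). Wider sets, not limited to the 39826 bins, asked for a call in only 2 libraries without PAM3. Lost bins made up 30.2% of the 7933 bins called in both untreated libraries and in neither PAM3 library. They made up 32.8% of the 7288 bins called in both 25HC libraries and in neither 25HC then PAM3 library. Within mouse A, 7188 bins were called in both libraries without PAM3 and in neither with it, and lost bins made up 33.3% of these. Within mouse B they made up 40.2% of 5951 such bins. The next counts are again within the 39826 bins. Bins that both PAM3 libraries lacked and both 25HC then PAM3 libraries kept numbered 712 (1.79% of the 39826). Bins with the opposite split, kept in both PAM3 libraries and lacking in both 25HC then PAM3 libraries, numbered 1399 (3.51%).

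**Figure D2:**
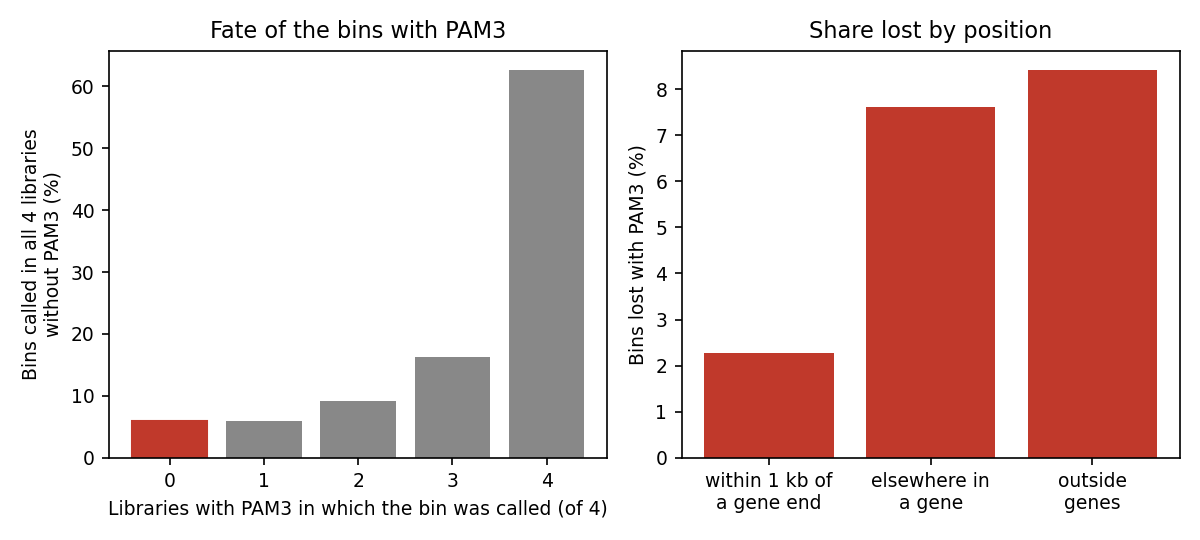
Left, share of the 39826 bins called in all 4 libraries without PAM3 (%) by the number of libraries with PAM3 that also called them; the red bar is the 2394 lost bins (6.01%), and 62.6% were called in all 4. Right, share of the same bins that was lost (%) by position; 2.27% of bins within 1 kb of a gene end were lost, against 7.6% elsewhere in genes and 8.41% outside genes.

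The lost bins lay mostly away from gene ends. Within 1 kb of the end of a protein-coding gene, either start or finish, lay 309 of the lost bins (12.9%). Another 1142 (47.7%) lay elsewhere in a gene body and 943 (39.4%) outside genes, at a median of 23 kb from the nearest gene. The 39826 bins from which they came had 34.1% at gene ends, and the 115134 bins called in at least 1 library had 19.7%. Bins called in all 8 libraries had 42.4% at gene ends, 32.3% in gene bodies and 25.2% outside genes. Gained bins were distributed much as lost bins were, with 10.3%, 48.5% and 41.2%. The table of genes used has no exons, so exonic and intronic bins are not separated.

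The lower loss at gene ends was seen in each library with PAM3. Of the bins at gene ends, PAM3 mouse A lacked 10.6%, PAM3 mouse B 8.54%, 25HC then PAM3 mouse A 9.85% and 25HC then PAM3 mouse B 9.88%. Outside genes the same libraries lacked 25.2%, 19.5%, 26.6% and 23.8%. The gene-end shares of the 4 libraries did not overlap the shares outside genes. Among chromosomes, the share lost ran from 4.69% on chromosome 10 to 7.77% on chromosome 14, so lost bins were spread over all 19 autosomes.

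Within the lost bins, the median called length was 0 bp in all 4 libraries with PAM3. It was 768.5 and 820 bp with 25HC and 876.5 and 850 bp in untreated cells, for mouse A and B. Between 56.4% (PAM3 mouse B) and 65.9% (25HC then PAM3 mouse A) of lost bins had no peak at all in a given library with PAM3. In all 4 of these libraries at once, 881 lost bins (36.8%) had no peak, and 432 (18%) were filled to 1000 bp in all 4 libraries without PAM3. Both held for 132 bins (5.51%).

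Some members stood close to the threshold. The lowest library without PAM3 held at least 500 and under 550 bp in 483 lost bins (20.2%), and the highest library with PAM3 held at least 450 and under 500 bp in 350 (14.6%). One or the other held for 688 (28.7%). Just outside, 834 bins missed membership with a lowest library without PAM3 between 450 and 500 bp, and 734 missed it with a highest library with PAM3 between 500 and 550 bp. The gap between the lowest library without PAM3 and the highest with it had a median of 549 bp and ran from 6 to 1000 bp.

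Most losses spanned 1 bin. The 2394 bins formed 2162 runs of adjacent bins, of which 1942 were single bins, 208 held 2 bins and 12 held 3, the longest. Averaged over all lost bins, peaks covered the centre in 4.05% and 4.14% of bins with PAM3 and 2.8% and 3.84% with 25HC then PAM3, against 99.9% and 100% with 25HC and 100% in both untreated libraries. At 2 kb upstream on the genome's plus strand the coverage was 9.4% and 11.2% with PAM3 and 10.2% and 10.9% with 25HC then PAM3, against 12.9% and 14.1% with 25HC and 15.7% and 14.2% untreated. At 5 kb on that side the 4 libraries with PAM3 lay between 6.98% and 8.35%, and the 4 without between 7.81% and 8.94%, so the ranges overlapped. At 10 kb the groups separated again. On the same side the libraries with PAM3 lay between 6.43% and 8.6% and those without between 9.57% and 10.4%, and on the other side between 7.31% and 9.15% with PAM3 and between 9.65% and 11.4% without.

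**Figure D3:**
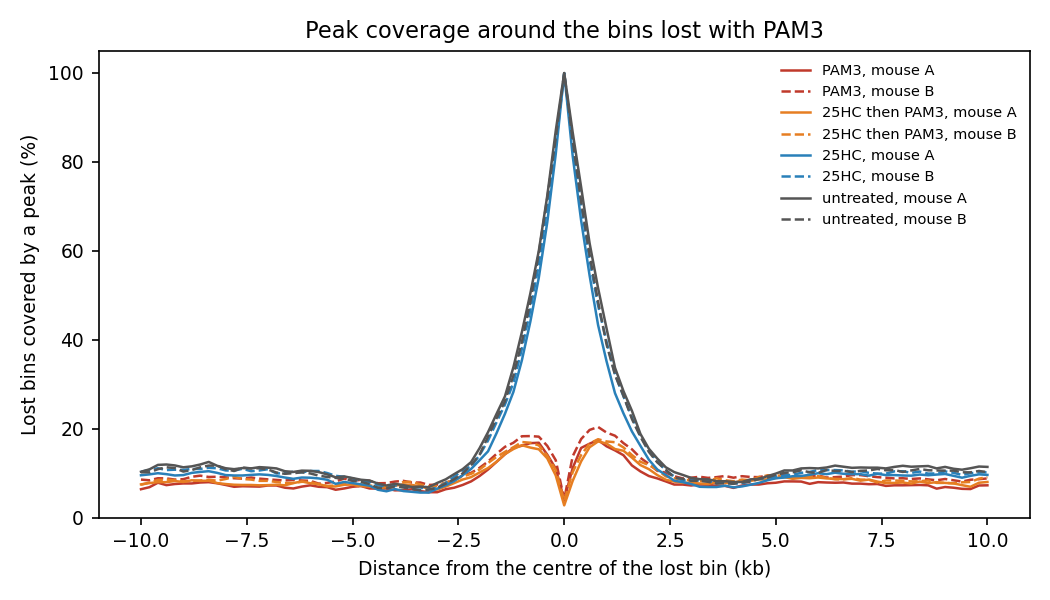
Share of the 2394 lost bins covered by a peak (%) at each distance from the bin's centre (kb, genome orientation), 1 line per library (solid, mouse A; dashed, mouse B). The 4 libraries with PAM3 dip to between 2.8% and 4.14% at the centre, the 4 without peak at 99.9% to 100%, and the curves meet within 5 kb and part again, with every library with PAM3 below every library without it at 10 kb on both sides; the rule fixed the values at the centre.

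With PAM3 some peak was often in or near the lost bin. In all 4 libraries with PAM3, a peak lay in the bin or within 5 kb at 1222 lost bins (51%). At 370 lost bins (15.5%) this held in 0 of those libraries. Peak left inside the lost bin counts here, and the peak need not be present without PAM3. The same share was not computed for other bins. A bin called in all 8 libraries was the direct neighbour of 411 lost bins (17.2%). Such neighbours were found at 39.5% of lost bins at gene ends, 14.7% of those elsewhere in genes and 12.8% of those outside genes. Lost bins with no peak inside or within 5 kb in any library with PAM3 made up 7.12% of those at gene ends, 13.5% in gene bodies and 20.6% outside genes. Gaps with a bin called in all 8 libraries within 2 bins on both sides, as at Junb, numbered 10 (0.418%).

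The peaks that held lost bins were of middling strength in their own lists. The authors' −log10 q and fold enrichment per peak were used only to rank peaks within a list. Peaks with a lost bin had median percentiles by −log10 q of 49.9 and 52.9 in the 25HC lists and 49.3 and 51 in the untreated lists. Peaks with a bin called in all 8 libraries had 53.1 and 52.9 with 25HC and 52.7 and 53.1 untreated. Median lengths were 1518 and 1663 bp with 25HC and 1825 and 1716 bp untreated for peaks with a lost bin. Peaks with a bin called in all 8 libraries had about the same lengths, 1590 and 1666 bp with 25HC and 1709 and 1661 bp untreated, and all peaks of the lists were shorter, at 1136 to 1227 bp. These sets share peaks. Peaks with a lost bin and no bin called in all 8 had medians of 1316 and 1446 bp with 25HC and 1600 and 1503 bp untreated. Peaks that held both kinds of bin were longer, at 2410 and 2594 bp with 25HC and 2681 and 2614 bp untreated.

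The 10 longest runs, ranked by called length among the 12 of 3 bins, differed in what their flanks kept. In the 5 kb on either side, 3 of them, in Hnrnpul1 and near Rasa1 and Hpgd, had 0 bp in all 4 libraries with PAM3, and the other runs kept peaks there. The run chr13:47226001-47229000 in Rnf144b, which encodes a ubiquitin ligase, had 538 and 292 bp of peak with PAM3 and 545 and 630 bp with 25HC then PAM3, against 3000 bp in all 4 libraries without PAM3. The run chr7:25730001-25733000 in Hnrnpul1, an RNA-binding protein gene, had 500 and 0 bp with PAM3 and 0 bp in both 25HC then PAM3 libraries, against 2588 and 3000 bp with 25HC and 3000 and 2984 bp untreated. The flanks of the Rnf144b run held 3696 and 4731 bp with PAM3 and 1936 and 4207 bp with 25HC then PAM3, against 2493 and 3233 bp with 25HC and 4516 and 4058 bp untreated.
In each run every library with PAM3 lay below every library without it, as the rule requires. The run chr4:132605001-132608000 lay 22317 bp from Ptafr, the receptor for platelet-activating factor. It had 749 and 740 bp with PAM3 and 1018 and 696 bp with 25HC then PAM3, against 2936 and 2899 bp with 25HC and 3000 and 2915 bp untreated. The run chr13:85441001-85444000, with Rasa1 the nearest gene at 151514 bp, had 0 bp in all 4 libraries with PAM3, 2957 and 2605 bp with 25HC, and 2577 and 2604 bp untreated. The other runs lay in St6galnac4, a sialyltransferase gene, in Fnip2, Frmd4b, Zbtb38 and Chp2, and 8551 bp from Hpgd, which encodes the enzyme that inactivates prostaglandins. The Hpgd run kept between 281 and 313 bp in the 4 libraries with PAM3, against 2475 to 2642 bp in the 4 without. Beside the Fnip2 run the flanks held more with PAM3, 2423 to 3069 bp in the 4 libraries against 1475 to 1799 bp in the 4 without. The same held beside the Zbtb38 run, with 2468 to 3291 bp against 1729 to 1886 bp.

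**Figure D4:**
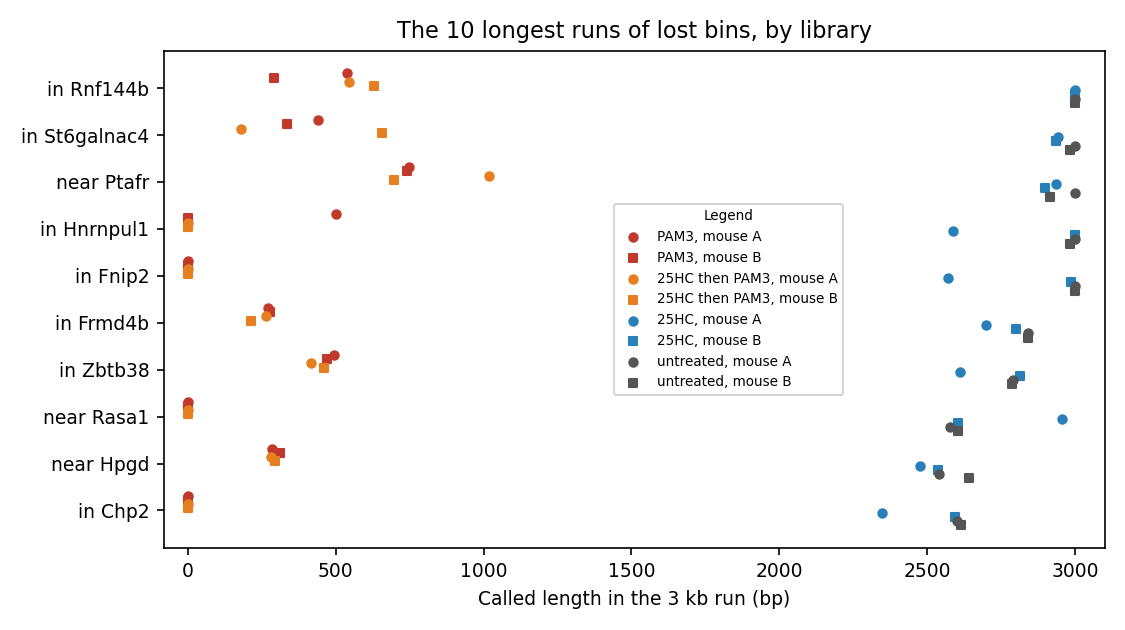
Called length (bp) in each of the 10 longest runs of lost bins, each 3 kb, by library; circles are mouse A and squares mouse B, and colours give the 4 groups. In every run the 4 libraries with PAM3 lie at or below 1018 bp and the 4 without at or above 2346 bp, as the rule requires of each bin.

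Assigned to genes by window, lost bins touched 1428 of 12565 protein-coding genes with a bin called in all 4 libraries without PAM3 (11.4%). More than 1 lost bin fell to 298 genes and 3 or more to 74. Neighbouring windows overlap, so a bin can count for several genes. Rad51b, which acts in DNA repair by homologous recombination, had the most, 10 of its 40 bins called in all 4 libraries without PAM3. All 10 lay in its gene body, along chr12:79318001-79839000, as separate single bins. At chr12:79692001-79693000 Rad51b had 0 and 299 bp with PAM3 and 0 bp in both 25HC then PAM3 libraries, against 1000 bp in both 25HC libraries and 1000 and 715 bp untreated. Over the whole Rad51b window the called length was 34431 and 43475 bp with PAM3 and 31315 and 32193 bp with 25HC then PAM3, against 49209 and 59977 bp with 25HC and 58250 and 55404 bp untreated.

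After Rad51b, 7 genes had 5 lost bins each. Eml6, a microtubule-associated protein gene, had 5 lost bins of 22, and Cmah, whose enzyme makes N-glycolylneuraminic acid, had 5 of 15. The Cmah window had 11154 and 13863 bp with PAM3 and 7144 and 3491 bp with 25HC then PAM3, against 23581 and 23072 bp with 25HC and 32477 and 30778 bp untreated. Sipa1l2, of a family of Rap GTPase activators, had 5 of 16, and Ankrd44, a regulatory subunit of a protein phosphatase, 5 of 15. Tpcn2, an endolysosomal cation channel gene, had 5 of 11.

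Fer1l6, of the ferlin family of membrane proteins, lost nearly all its peaks, with 5 lost bins of 8. Its window had 2578 and 0 bp with PAM3 and 0 and 758 bp with 25HC then PAM3, against 8919 and 12255 bp with 25HC and 10447 and 10892 bp untreated. Chp2, a calcineurin-B-like calcium-binding protein gene, had 4 lost bins of 5. Of these, 3 form the run at one end of the gene, and the window had 1933 and 0 bp with PAM3 and 1003 and 1057 bp with 25HC then PAM3, against 4174 and 5398 bp with 25HC and 6127 and 5560 bp untreated. Slco2b1, an organic anion transporter gene, had 4 lost bins of 7. Its window had 3801 and 1482 bp with PAM3 and 2395 and 3483 bp with 25HC then PAM3, against 9265 and 10145 bp with 25HC and 13705 and 13555 bp untreated. In Fer1l6, Chp2 and Slco2b1 every library with PAM3 lay below every library without it over the whole window.

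Fnip2, which encodes a folliculin-interacting protein, held lost and gained sites together. It had 5 lost bins of 14 and 2 gained bins. The Fnip2 window as a whole had 16919 and 20944 bp with PAM3 and 21298 and 20737 bp with 25HC then PAM3, against 15808 and 24007 bp with 25HC and 20233 and 19709 bp untreated, and these ranges overlapped. In Ankrd44 the window also overlapped, with 14991 and 22945 bp with PAM3 and 21559 and 20175 bp with 25HC then PAM3, against 22215 and 20803 bp with 25HC and 24893 and 18689 bp untreated. The remaining genes among the 25 with most lost bins had 3 or 4 each. They were Vps13d, Med12l, Adgrv1, Bcas3, Armc2, Plcb4 (a phospholipase C), Gna12 (a G protein subunit), Hdac4 (a histone deacetylase), Slc24a3, Slc45a4, Smap2, Tbc1d4 and Tbc1d1 (both Rab GTPase activators), Aopep, and Maml2 (a coactivator of Notch). Hdac4 had 4 lost bins of 11, and its window had 10508 and 14947 bp with PAM3 and 4715 and 12883 bp with 25HC then PAM3, against 17694 and 16461 bp with 25HC and 20148 and 18640 bp untreated.

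For 121 genes, all bins that were called in every library without PAM3 were lost, and 21 of these had at least 2 such bins. These genes were named after their values were seen. Clec4g, a C-type lectin gene, had 0 bp in its whole window in all 4 libraries with PAM3, against 1742 and 2467 bp with 25HC and 1993 and 2599 bp untreated. Mrap2, which encodes an accessory protein of melanocortin receptors, was also at 0 bp in all 4 libraries with PAM3, with 2089 and 1815 bp with 25HC and 2020 and 2849 bp untreated. Lhfpl3, Pappa2 and Oaz3 were at 0 bp with PAM3 as well. By contrast, Zzz3 had 2 lost bins of 2 but kept 4865 and 8698 bp in its window with PAM3 and 6182 and 7986 bp with 25HC then PAM3, against 5636 and 6717 bp with 25HC and 4381 and 6606 bp untreated.

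Lists of genes were compared with the 11.4% of all protein-coding genes that held a lost bin. In all, 26 lists with 469 genes were examined, and 14 had a share above that of all genes. The lists differ in number of bins, so the share of bins lost is given too, beside 4.91% over all gene windows. The highest share was among dendritic cell markers, with 6 of 10 genes (60%) and 10 of 53 bins (18.9%). Siglech had 3 lost bins, and Tcf4 (the E2-2 transcription factor), Kmo (kynurenine monooxygenase) and Flt3 (a growth factor receptor of dendritic progenitors) followed with 2, 2 and 1. The Siglech window held 325 and 329 bp with PAM3 and 1854 and 1804 bp with 25HC then PAM3, against 3559 and 4120 bp with 25HC and 4180 and 5193 bp untreated. The Tcf4 window did not separate, at 29009 and 39501 bp with PAM3 and 30875 and 37173 bp with 25HC then PAM3, against 33900 and 35230 bp with 25HC and 36602 and 32580 bp untreated. Summed over the 16 dendritic cell markers, the called length was 65.2 and 85.4 kb with PAM3 and 72.6 and 76.5 kb with 25HC then PAM3, against 74.3 and 85.2 kb with 25HC and 88.6 and 88.4 kb untreated. A change in the share of dendritic cells in the cultures was not tested, and in such bulk samples fewer cells of a type and less acetylation per cell cannot be told apart.

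Neutrophil and granule markers held lost bins at 4 of 10 genes (40%) and 4 of 34 bins (11.8%). Elane and Prtn3, serine proteases of primary granules, had 1 each, as did Padi4, which citrullinates histones, and the collagenase gene Mmp8. The lost bins of Prtn3, Elane and Mmp8 also lay in windows of neighbouring genes, and that of Prtn3 was the Plppr3 start bin. The Mmp8 window overlapped, at 5590 to 6336 bp in the libraries with PAM3 and 4476 to 7488 bp in those without. The Elane window had 807 and 1286 bp with PAM3 and 1751 and 985 bp with 25HC then PAM3, against 3044 and 2705 bp with 25HC and 3524 and 3299 bp untreated. The sum over the neutrophil list went the other way, with 46.3 and 55 kb with PAM3 and 49.3 and 51.4 kb with 25HC then PAM3, against 36.9 and 37.7 kb with 25HC and 44.3 and 39.7 kb untreated. The part of neutrophils in the result was not tested. Lymphocyte markers held a lost bin at 1 of 9 genes (Il18r1; 5.26% of bins), fibroblast and endothelial markers at 2 of 6 (Pdgfrb and Kdr; 8.33% of bins), and erythroid, megakaryocyte and mast cell markers at 0 of 5.

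Genes of alternative activation held lost bins at 5 of 13 (38.5%; 6 of 62 bins, 9.68%). Pparg, a nuclear receptor of lipid metabolism, had 2, at one end of its gene. At chr6:115490001-115491000 Pparg had 350 and 0 bp with PAM3 and 0 bp in both 25HC then PAM3 libraries, against 1000 bp in all 4 libraries without PAM3. Il4ra, the interleukin-4 receptor chain, Irf4, an interferon regulatory factor, and Clec10a, a macrophage lectin, had 1 each. Ccl17, a chemokine, had its single lost bin at chr8:94812001-94813000, and its whole window was at 0 bp in all 4 libraries with PAM3, against 640 and 814 bp with 25HC and 651 and 1190 bp untreated. Ccl17 was also the one gene with a lost bin among the 25 on the list of cytokines and chemokines (4%; 1 of 48 bins), which does not hold every cytokine gene.

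TGF-beta, adhesion and guidance genes held lost bins at 10 of 20 (50%; 10 of 133 bins, 7.52%), each with 1. Among them were the integrin genes Itgb5 and Itga9, the TGF-beta receptor gene Tgfbr2 and the semaphorin gene Sema4d. The list of C-type lectin receptors held them at 5 of 15 (33.3%; 6 of 45 bins, 13.3%). This list also counts Cd300a, an immunoglobulin-family receptor and not a C-type lectin, which had 1 lost bin of 4. Clec1a and Clec9a, which adjoin on chromosome 6 and share a lost bin, had 2 and 1. The Clec1a window had 732 and 0 bp with PAM3 and 6081 and 4642 bp with 25HC then PAM3, against 6457 and 5195 bp with 25HC and 6486 and 6157 bp untreated. The libraries of 25HC then PAM3 thus lay near those without PAM3 over the Clec1a window, while its 2 lost bins were lacking in all 4 libraries with PAM3.

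NF-kB subunits and feedback genes held lost bins at 4 of 15 (26.7%; 5 of 66 bins, 7.58%), although PAM3 engages this pathway. Nfkb1, which encodes p105 and p50, had 2 lost and 1 gained bin. Its window had 15819 and 17694 bp with PAM3 and 16086 and 20845 bp with 25HC then PAM3, against 14428 and 16855 bp with 25HC and 16083 and 17037 bp untreated, so the ranges overlapped. Tnip1, Zc3h12a and Tnfaip3, which restrain NF-kB signalling or inflammatory transcripts, had 1 lost bin each. Their windows overlapped too. The libraries with PAM3 held 9286 to 12853 bp at Tnip1, 7473 to 9263 at Zc3h12a and 4125 to 6371 at Tnfaip3. Those without held 9171 to 10276, 7552 to 7951 and 5118 to 5503 bp. The Zc3h12a bin stood close to the threshold, at 328 to 480 bp with PAM3 and 538 to 558 bp without. Lysosome and endocytosis genes held them at 5 of 16 (31.2%; 6.67% of bins), among them Tfeb, the transcription factor of lysosomal genes, and Atp6v0d2, a subunit of the proton pump. The Atp6v0d2 window had 8189 and 8605 bp with PAM3 and 4958 and 8030 bp with 25HC then PAM3, against 14922 and 11916 bp with 25HC and 15143 and 12475 bp untreated. The windows of Tfeb, Atp6v1a and Ctsb overlapped. In the libraries with PAM3 they held 11566 to 13714, 7156 to 15210 and 8871 to 10779 bp. In those without they held 13670 to 16025, 10634 to 12271 and 8238 to 10809 bp.

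Interferon-stimulated genes and regulators held lost bins at 3 of 22 (13.6%), namely Irf8, Usp18 and Irf4, while their share of bins, 3.9%, was under that of all gene windows. Irf8, a lineage factor of monocytes and dendritic cells, lost the bin chr8:120745001-120746000 in its gene body. There it had 278 and 248 bp with PAM3 and 0 bp in both 25HC then PAM3 libraries, against 966 and 910 bp with 25HC and 994 and 941 bp untreated. Antigen presentation genes held them at 3 of 16 (18.8%; 5.56% of bins), with H2-DMa and H2-DMb2, which load class II molecules, sharing 1 bin, and Ctss, a cathepsin, having 1. Over its whole window Ctss had 3632 and 8038 bp with PAM3 and 6563 and 6680 bp with 25HC then PAM3. The values were 2751 and 3527 bp with 25HC and 3635 and 4306 bp untreated, so the Ctss window was not shorter with PAM3. LXR targets and oxysterol genes held lost bins at 3 of 17 (17.6%; 5.08% of bins; Abca1, Nr1h3 and Abcg1) and cholesterol synthesis genes at 2 of 18 (11.1%; 4.88% of bins), among them Srebf2. The windows of Abca1 and Abcg1 overlapped. In the libraries with PAM3 they held 12462 to 16598 and 7200 to 9988 bp, and in those without 9690 to 15463 and 6946 to 8135 bp. Nr1h3, which encodes an LXR receptor, had 1 lost and 3 gained bins. Its window had 9366 and 10803 bp with PAM3 and 10971 and 10340 bp with 25HC then PAM3, against 7698 and 8115 bp with 25HC and 7886 and 7826 bp untreated, so it was longer in every library with PAM3. Cell cycle genes had 3 of 19 (5.56% of bins), and complement and Fc receptors 2 of 16 (5.17%). Purine and lipid-mediator receptors had 3 of 23 (13%), with 3.6% of bins. Glycolysis and hypoxia genes had 1 of 14 (1.89% of bins), and Siglec and paired receptors 1 of 20 (4.84%).

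No gene of 5 lists held a lost bin. These were the Toll-like receptors and co-receptors (0 of 11 genes; 44 bins), their adaptors and kinases (0 of 14; 53 bins), chemokine receptors (0 of 8; 24 bins), the erythroid list and housekeeping genes (0 of 13; 33 bins). Macrophage identity genes held one at 1 of 24 (4.17%; 1 of 120 bins, 0.833%). That gene was Nr4a1, an orphan nuclear receptor. Tissue-macrophage genes held one at 1 of 16, Siglech (4.35% of bins).

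**Figure D5:**
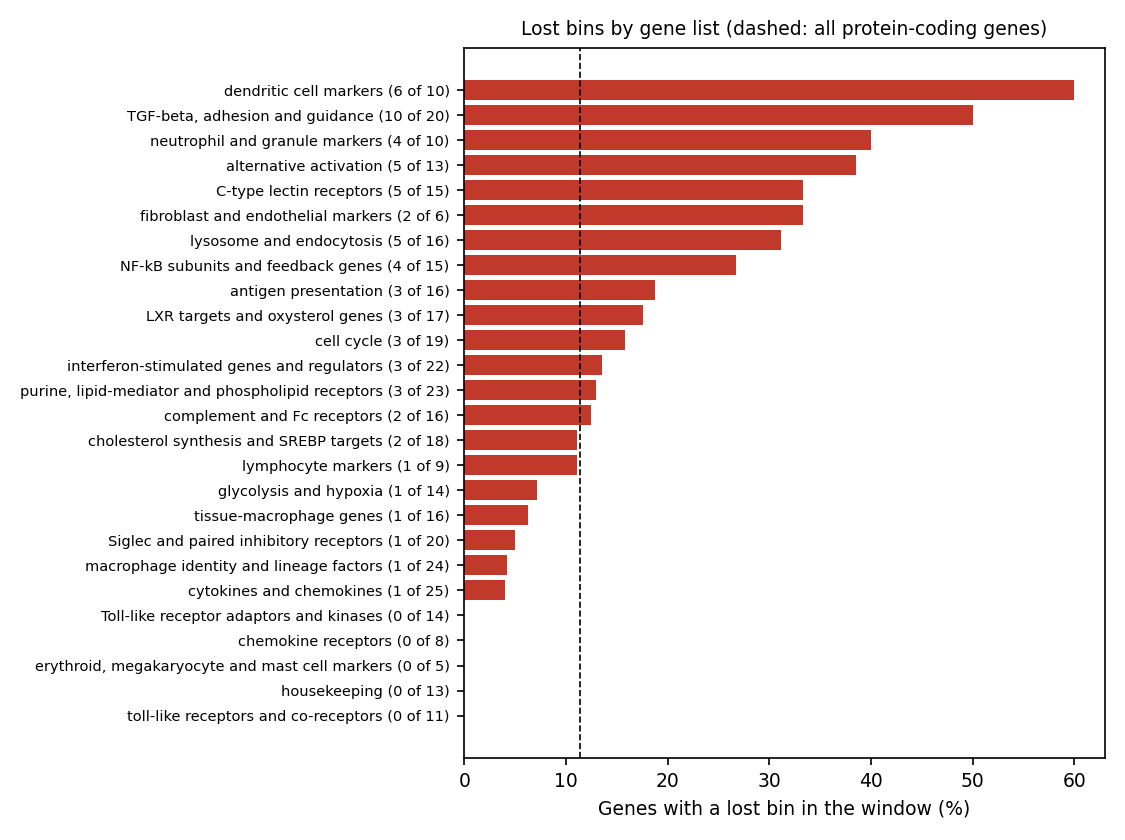
Share of genes with a lost bin in the window (%), for 26 gene lists, with the number of genes that held one and the number with a bin called in all 4 libraries without PAM3 in brackets. The dashed line marks 11.4%, the share of all protein-coding genes; dendritic cell markers reach 60% and 5 lists stand at 0.

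Whether 25HC moved the surroundings of lost bins was tested on segments of 5 kb, by limma on log2 of the called bp plus 500 bp over all 8 libraries, with Benjamini-Hochberg adjustment over all segments. This contrast was not used to choose the members, although the rule holds both PAM3 groups under 500 bp in the lost bin itself and both groups without PAM3 at 500 bp or more. Of 2191 segments with a lost bin, 1899 (86.7%) passed a mean called length of 500 bp over all 8 libraries. The libraries without PAM3, where the rule sets a minimum in the lost bin, can carry such a segment past that filter. The shares and p-values below are therefore not independent of the choice of members. With PAM3 in both arms, 25HC then PAM3 against PAM3, 78 of the 1899 (4.11%) had an adjusted p under 0.05, against 2.95% of all 43732 segments tested. They were higher with 25HC in 31 (1.63%; all segments, 1.29%) and lower in 47 (2.47%; all segments, 1.66%). With the mouse as a block, 33 of the 1899 were called, 8 higher and 25 lower, and 550 of all 43732 segments. With only the peaks of a −log10 q of 5 or more, no segment was called, with or without a lost bin. There 67 of 1229 segments with a lost bin had an unadjusted limma p under 0.05, against 2883 of all 28645. At equal covered length 49 of 1657 with a lost bin were called, against 775 of all 39088. The median log2 difference was -0.036 over the 1899 segments and -0.027 over all.
Of the 31 higher segments, 16 had 0 bp in both PAM3 libraries, and of the 47 lower, 30 had 0 bp in both 25HC then PAM3 libraries. For these the log2 change reflects the added 500 bp, and libraries that are both at 0 show no spread, so their p-values can be too small. The count of 78 depended on single libraries, as did the count over all segments. Without PAM3 mouse A the median log2 difference was 0.057 over segments with a lost bin and 0.019 over all. Without PAM3 mouse B it was -0.143 and -0.088.

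Segments called for 25HC then PAM3 against PAM3 went in both directions. Each of those named here, and at Il4 and Prex1 below, had 0 bp in both libraries of 1 arm. Their p-values can therefore be too small, as said above. They were named after their values were seen. The segment chr7:145195001-145200000 in Tpcn2, with 2 lost bins, was the one with the smallest p. It had 0 bp in both 25HC then PAM3 libraries and 1703 and 1987 bp with PAM3, and 2637 and 3341 bp with 25HC against 4343 and 4257 bp untreated (adjusted p for 25HC then PAM3 against PAM3 by limma, 0.00477; 0.0279 with the mouse as a block). The segment chr4:88705001-88710000, with Klhl9 the nearest gene at 8291 bp, went the other way. It had 1760 and 1764 bp with 25HC then PAM3 and 0 bp in both PAM3 libraries, with 2372 and 2253 bp with 25HC and 2346 and 2368 bp untreated (limma adjusted p, 0.00502; 0.0279 with the block). The segment chr5:112250001-112255000 that holds the Cryba4 start was also higher with 25HC then PAM3 (limma adjusted p, 0.0253; 0.0342 with the block).

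A lower value came at the cytokine gene Il4, in chr11:53615001-53620000. It had 0 bp in both 25HC then PAM3 libraries against 897 and 1087 bp with PAM3, and 1470 and 1524 bp with 25HC against 1464 and 1451 bp untreated (limma adjusted p, 0.00947; 0.0407 with the block). A segment in Prex1, a Rac exchange factor gene (chr2:166630001-166635000), had 0 bp in both 25HC then PAM3 libraries against 1199 and 1439 bp with PAM3, and 1880 and 2150 bp with 25HC against 1785 and 1918 bp untreated (limma adjusted p, 0.00594; 0.0342 with the block). At both, the PAM3 libraries held less called length than those without PAM3, and the 25HC then PAM3 libraries held none.

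Without PAM3, few segments were called for 25HC. In simulated data for this contrast, given below, most changed segments were not called, so few calls do not show that few segments changed. Against untreated cells, 59 of 43732 segments (0.135%) were called by limma, 36 higher (0.0823%) and 23 lower (0.0526%), and 2 with the mouse as a block. Of the 1899 segments with a lost bin, 1 was called (0.0527%), lower, and 0 with the block (43 at an unadjusted p under 0.05). Without the block, 2.53% of them had an unadjusted limma p under 0.05, against 4.77% of all segments. The rule asks for 500 bp or more of the lost bin in every library without PAM3, which limits differences between 25HC and untreated there. The low count therefore cannot be read as a result about these segments. The one called lay in Sema4a, a semaphorin gene, at chr3:88440001-88445000. It had 1629 and 1787 bp with 25HC against 3516 and 3558 bp untreated, a log2 difference of -0.82 ± 0.07 (SE, 2 libraries per group; limma adjusted p, 0.0426; 0.179 with the block). Whether the effect of 25HC in these segments differed between cells with and without PAM3 was not tested.

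Summed over all lost bins, called length was 1.88 and 1.94 Mb with 25HC against 2 and 1.96 Mb in untreated cells, a ratio of 0.963, beside 0.985 over all 39826 bins. With PAM3, the residue left in the lost bins was 0.231 and 0.261 Mb with 25HC then PAM3 against 0.278 and 0.323 Mb with PAM3, a ratio of 0.819, beside 0.976 over all 39826 bins. The rule limits these lengths in every library, so the sums are given with no test.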

How the data were processed

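The submitters' processing notes name GSNAP, MACS2 2.1.0 and the build GRCm38 (mm10). Which control, read filter or threshold the peak calls used is not given in the sources used here. Each deposited list, 1 per library, gives the start and end of each peak in bp, the authors' fold ratio and the authors' −log10 q per peak. The authors deposited no read counts in these lists, so the read depth is unknown and values carry no counting interval.

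Peaks of each library were merged and their covered bp counted in 1 kb bins starting at multiples of 1000, on chromosomes 1 to 19 (Python 3.11.15, pandas 2.3.3, numpy 2.4.6). Genes and promoter sequences came from RefSeq tables on GRCm38.p6. Segments of 5 kb were tested with limma 3.58.1 in R 4.3.3 (trend and robust empirical Bayes, 1 model over the 4 groups, library medians subtracted), with 4 residual degrees of freedom and a median prior of 1.46. Data were also simulated over 43732 segments for the contrast of 25HC against untreated. There limma called 11 of 100 segments changed by 1 on the log2 scale and 44 of 100 changed by 2. The contrast of 25HC then PAM3 against PAM3 was not simulated.

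The mouse letters pair libraries by animal, per the labels; deviations of same-mouse libraries correlated between -0.0199 and 0.0108, so the pairing shows little in called length. Each p-value rests on the spread between 2 mice.

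The members, lists and tests were chosen with earlier results of these data known. Genes were named by most lost bins (25), longest runs (10) and, per list, up to 4 genes with a lost bin; names outside these are said to have been chosen after their values were seen. A result at 1 further gene is not reported here.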

Additional observations from a re-analysis of the deposited data

How the results depend on the processing

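The number of lost bins stayed within 1.5 times 2394 at a called length of 250 or 750 bp, on a shifted grid, with equal numbers of peaks or equal covered length, and without each library in turn (2713 to 3507). It was 1178 when peaks under a −log10 q of 5 were dropped, which leaves fewer peaks. That was 10.8% of the bins then called in all 4 libraries without PAM3, against 6.01% as reported. The number was 881 (2.21%) where no peak bp at all was allowed with PAM3, which is a stricter rule. The share at gene ends, 12.9%, was 10.6% at 250 bp, 21.1% with peaks of −log10 q of at least 5, 15.2% at equal covered length, 7.15% with no peak bp with PAM3 and 20% for ends within 2.5 kb; it was 12.3% to 13.6% without each library in turn. Genes with a lost bin numbered 1428, and 2252 with 20 kb on either side, a wider window.

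Segments called for 25HC against untreated numbered 59, and 126 and 32 with 100 and 2000 bp added, 21 with no filter, 297 at equal covered length, 129 and 15 in segments of 2 and 10 kb, 2 with the replicate block, 0 with peaks of −log10 q of at least 5 (1872 at an unadjusted p under 0.05), and 4 to 363 without each library in turn. For 25HC then PAM3 against PAM3 the 1290 became 2269 with no filter, 775 at equal covered length, 550 with the replicate block, 0 with peaks of −log10 q of at least 5 (2883 unadjusted), and 865 to 2378 without each library. Segments with a lost bin called there numbered 78, and 118 with 100 bp added, 49 at equal covered length, 33 with the replicate block, 0 with peaks of −log10 q of at least 5 (67 unadjusted), and 44 to 155 without each library. Without 1 library, the lone sample of its group is assumed to vary like the others. Beyond fewer segments tested, the cause was not tested. The lists hold called intervals with no read counts, so weak acetylation below the authors' calling threshold cannot be seen in them.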

Other observations

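Chromosome X, which the rule leaves out, held the same pattern at 64 of 950 bins called in all 4 libraries without PAM3 (6.74%), and the reverse pattern at 74 bins. Lost and gained bins fell in the same gene window in 169 genes. Of these, Vmp1, which encodes an autophagy protein of the endoplasmic reticulum, had 3 lost and 3 gained bins. Foxn3, Pag1, Rapgef5 and Swap70 had 2 lost and 3 gained bins each, and Lrmda had 3 lost and 2 gained. These genes were named after their values were seen.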
